A study of Mus musculus with 2 samples.

Results

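An adenovirus delivering the transcription factor KLF14 (Ad-KLF14) left 67 genes below 0.5 FPKM in C57BL/6 mouse primary hepatocytes that stood at 1.5 FPKM or more in hepatocytes of the same strain given a control adenovirus labelled GFP (Ad-GFP). FPKM are reads per length of gene model and per library size, so levels of genes can be compared per length. The 67 genes were taken from 35129 gene symbols, of which 23285 are typed as mRNA in the files. Both limits had to be met in an mRNA row, and the clock factor gene Npas2, which also met them, was left out by the rule. With 1 library in each group, nothing could be tested between them, and the differences describe these 2 libraries. The design text calls the control an empty vector. The virus promoter, the virus dose, the time after infection, and the sex and age of the mice are not given in the sources used here. The design text also speaks of retinal profiles in triplicate, while the files hold 1 table per condition, and whether a table pools several cultures is not given.

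KLF14 belongs to the KLF and SP family of zinc finger proteins, which bind GC-rich and CACCC sequences. It is known mainly as a repressor that recruits the Sin3 and histone deacetylase complex, and it has been studied in liver and fat for its part in lipid and glucose metabolism. Hepatocytes put into culture are known to lose part of their adult programme and to gain cytoskeletal, bile duct and fetal transcripts, many of them normally made by other tissues.

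The targeted gene and the cell type went with the labels. Klf14 stood at 13164 FPKM with Ad-KLF14 and 0.298 FPKM with Ad-GFP. Transcripts from the virus and from the endogenous locus cannot be told apart in that value. Albumin, Alb, was at 4172 FPKM with Ad-KLF14 and 5115 FPKM with Ad-GFP. Of 12 hepatocyte markers, 11 were found in the files and all 11 were above 0 in both libraries, with a summed level of 6511 FPKM with Ad-KLF14 and 7486 FPKM with Ad-GFP. Read totals of 11151711 with Ad-KLF14 and 11311344 with Ad-GFP were recovered from the steps of the values, so depth was close in both. None of the 67 genes is on the hepatocyte marker list.

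The levels of the 67 genes chose them and are given as a description. With Ad-KLF14 their values ran from 0 to 0.497 FPKM with a median of 0.333 FPKM, and with Ad-GFP from 1.51 to 14.5 FPKM with a median of 2.02 FPKM. Most were therefore weakly expressed already in the control. The median level with Ad-GFP of all 10637 mRNA rows at 1.5 FPKM or more there was 15.1 FPKM. Of the 67 genes, 32 were under 2 FPKM with Ad-GFP, 20 between 2 and 3 FPKM, and 15 at 3 FPKM or more, of which 5 reached 5 FPKM and 1 reached 10 FPKM. The word silenced covers the set only in part, because 66 of the 67 genes still had a value above 0 with Ad-KLF14. The exception was LOC100503571, a gene model without a curated name, listed at 0 with Ad-KLF14 and at 1.55 FPKM from at least 1 read with Ad-GFP.

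Genes that met both limits made up 0.639% of the mRNA rows at 1.5 FPKM or more with Ad-GFP (68 of 10637, Npas2 included). With the libraries exchanged, 104 of 10545 rows (0.986%) were below 0.5 FPKM with Ad-GFP and at 1.5 FPKM or more with Ad-KLF14, Klf14 among them. The share depended on level. Of rows at 1.5 to 2 FPKM with Ad-GFP, 8.38% were low with Ad-KLF14, against 3.08% at 2 to 3 FPKM, 0.982% at 3 to 5 FPKM and 0.210% at 5 to 10 FPKM. The exchanged shares were 7.71%, 4.29%, 2.94% and 0.322% at the same levels.

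**Figure D1:**
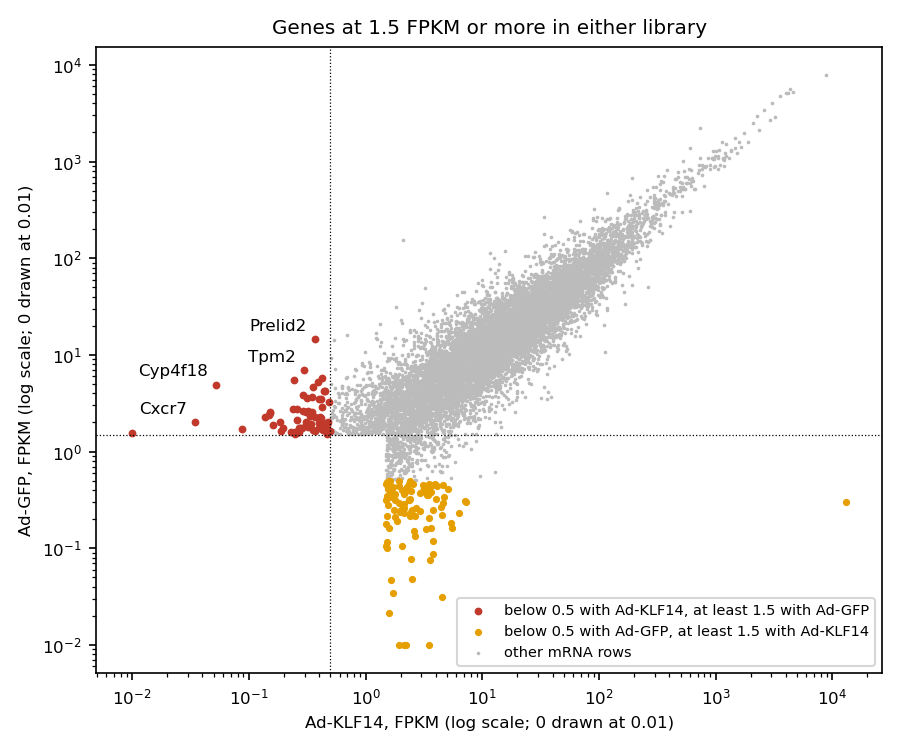
Each point is an mRNA row at 1.5 FPKM or more in at least 1 library, with Ad-KLF14 on the x axis and Ad-GFP on the y axis, both in FPKM on log scales. Dotted lines mark 0.5 FPKM with Ad-KLF14 and 1.5 FPKM with Ad-GFP; the 67 genes (red) sit at upper left, where the 1 grey point is Npas2, and the 104 genes low with Ad-GFP are orange.

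**Figure D2:**
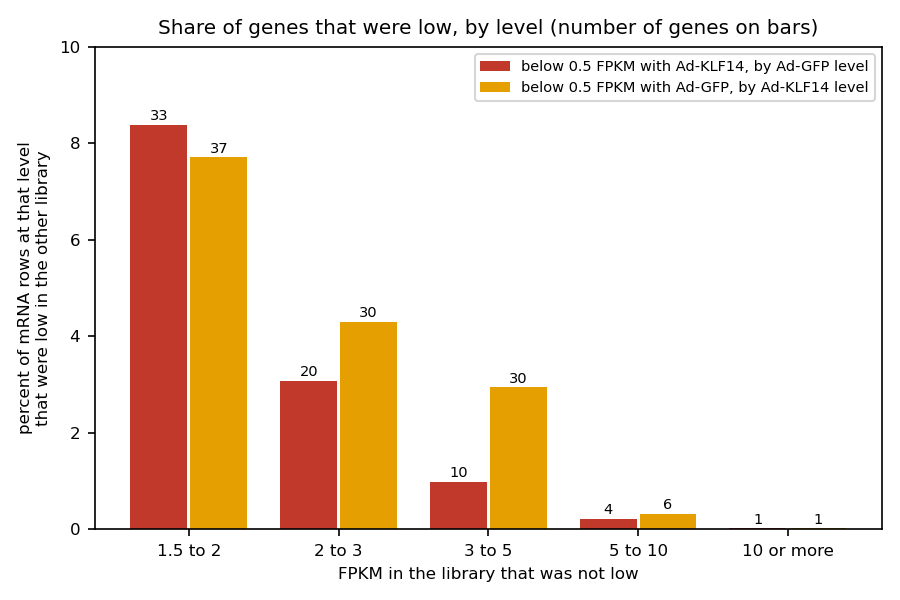
Bars give the percent of mRNA rows at each level that were below 0.5 FPKM in the other library, with the number of such genes above each bar (Npas2 counted). In both directions the share is highest at 1.5 to 2 FPKM (8.38% low with Ad-KLF14 and 7.71% low with Ad-GFP) and under 0.5% from 5 FPKM on.

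By the limits, the difference was over 3-fold in every case. Among the 66 with a ratio, the level with Ad-KLF14 was lower by 3-fold to 5-fold in 16, by 5-fold to 10-fold in 30 and by 10-fold or more in 20. The median was 6.87-fold and the range 3.20-fold to 93.7-fold. On the log2(FPKM + 1) scale, the median difference between Ad-KLF14 and Ad-GFP was −1.25 over the 67 genes. Over all 11258 mRNA rows averaging 1 FPKM or more it was −0.03. The recovered reads, which are lower limits, ran from 0 to 28 per gene with Ad-KLF14 (median 7) and from 1 to 293 with Ad-GFP (median 52). They summed to 565 with Ad-KLF14 and 4530 with Ad-GFP. The 95% Clopper-Pearson interval of the ratio, which covers counting error only, lay below 1 for 64 of the 67 genes. The exceptions were Zdhhc23, Lst1 and LOC100503571, which rest on at least 9, 4 and 1 reads with Ad-GFP. The same values chose the genes and set the intervals, so the count of 64 is a description and not a test. In 18 genes the Ad-KLF14 value rests on 3 recovered reads or fewer. Because recovered reads are lower limits, the true counts may be higher, and intervals such as that of Zdhhc23 may be too wide.

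**Figure D3:**
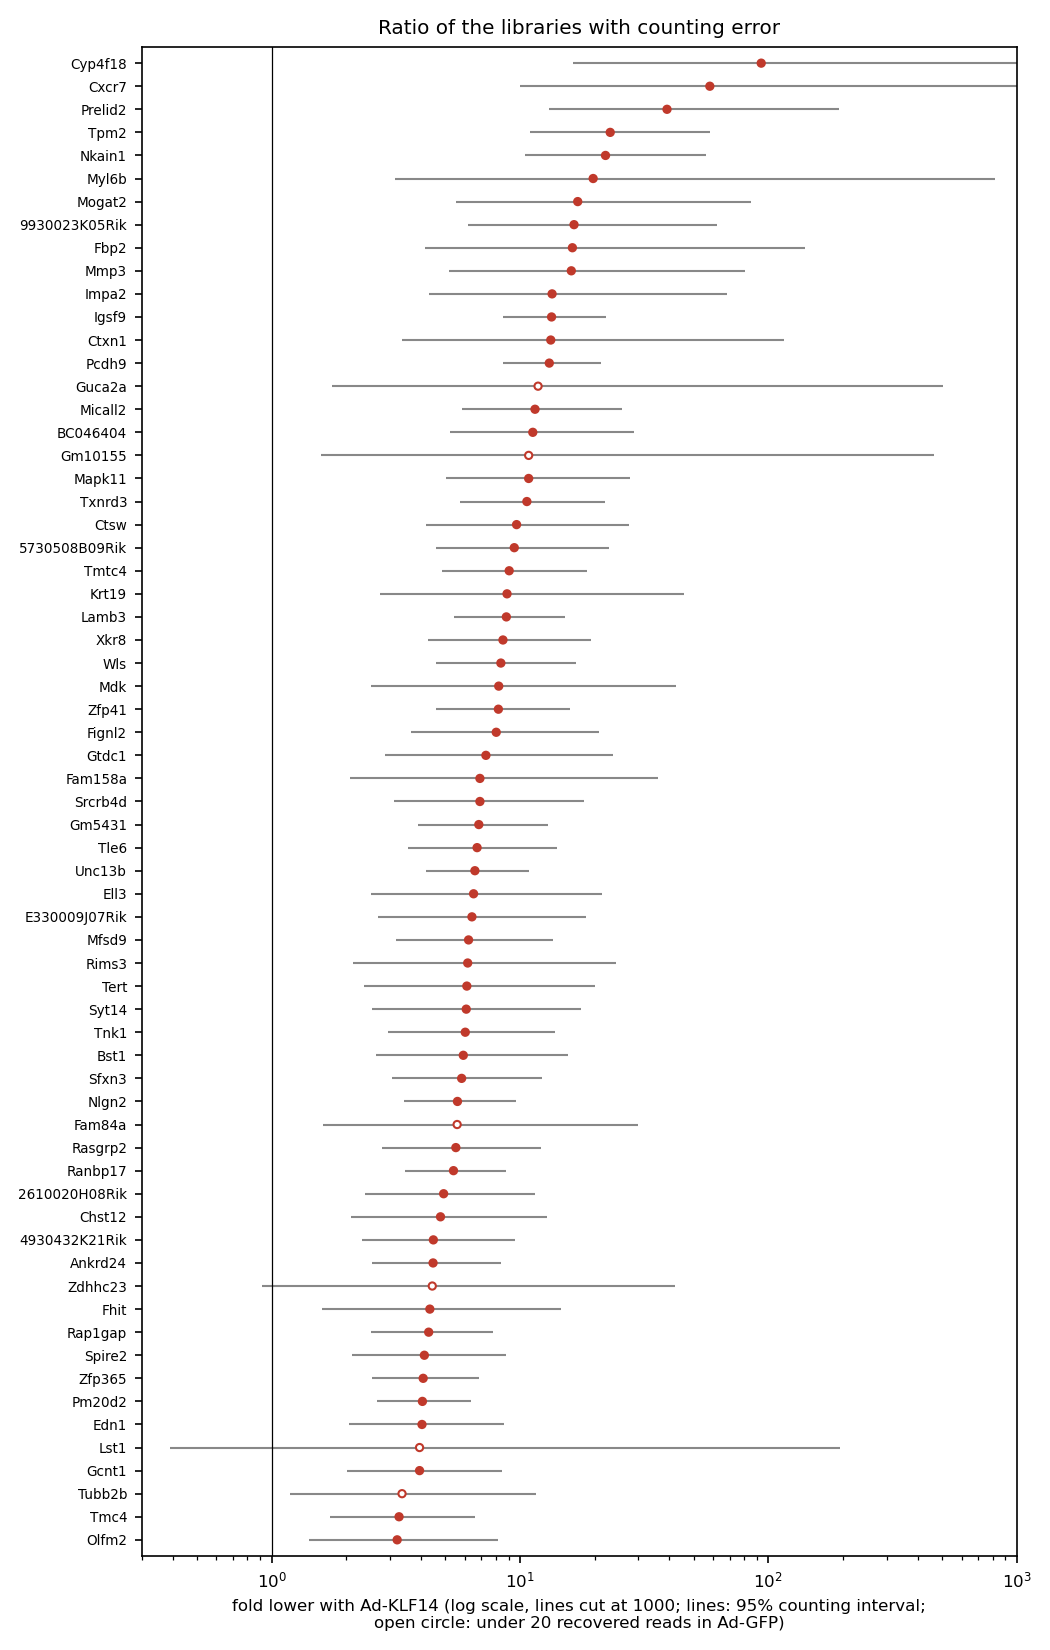
Points give the Ad-GFP level divided by the Ad-KLF14 level for 65 of the 66 genes with a value above 0 in both, on a log scale, with 95% counting intervals as lines. Long lines are cut at the right edge and open circles mark genes with under 20 recovered reads with Ad-GFP. Cyp4f18, at 93.7-fold lower with Ad-KLF14, leads, and the lines of Zdhhc23 and Lst1 cross 1.

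By what their products do, the genes were sorted by hand into 10 classes after their values were known. The largest classes, with 11 genes each, were genes of the nervous system and enzymes of metabolism. Cytoskeletal genes, immune genes and a class of germline and nuclear genes had 7 members each, and membrane and organelle transport and secreted signals had 5 each. Intracellular signalling and matrix or junction genes had 3 each, and 8 genes carry few or no annotations. By the tissue each is best known from, 11 were brain genes, 7 germ cell genes, 7 epithelial genes, 5 leukocyte or platelet genes and 3 muscle genes, while 32 are broadly expressed or were given no tissue. The other two were Mdk (embryo) and Edn1 (endothelium). The class medians of the fold lower with Ad-KLF14 lay between 6.02-fold and 9.49-fold. Other genes at 1.5 FPKM or more with Ad-GFP were not sorted by class or tissue. The class and tissue counts therefore have no background share and do not show that any class or tissue is favoured.

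**Figure D4:**
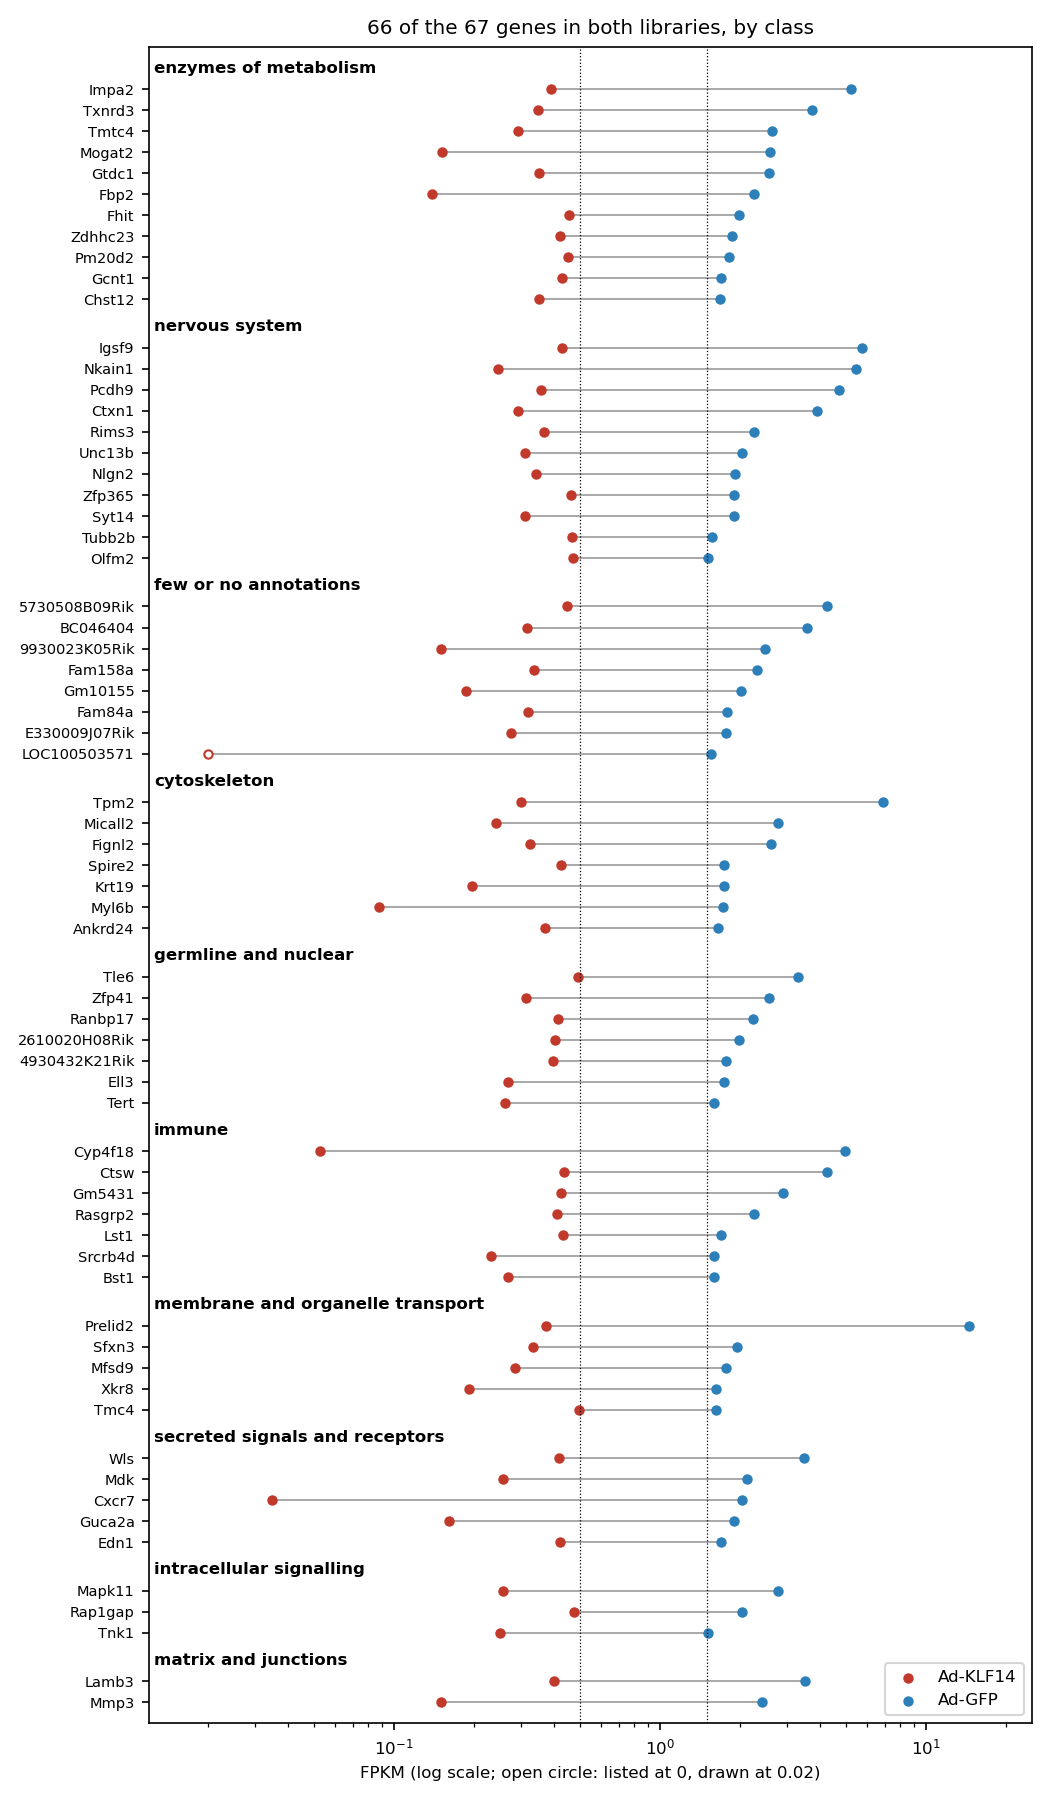
Each of 66 genes has its Ad-KLF14 level (red) and its Ad-GFP level (blue) in FPKM on a log scale, grouped by class, with dotted lines at 0.5 and 1.5 FPKM. Prelid2 has the highest Ad-GFP level, 14.5 FPKM, and the open circle is LOC100503571, listed at 0 with Ad-KLF14.

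The cytoskeletal genes were led by Tpm2, beta tropomyosin, the actin-binding protein of muscle and of contractile cells. Tpm2 was at 0.299 FPKM with Ad-KLF14 and 6.91 FPKM with Ad-GFP, from at least 7 and 164 reads, a 23.1-fold lower level (interval 10.96 to 58.4). Its relatives stayed high. Tpm1 was at 206 FPKM with Ad-KLF14 and 328 FPKM with Ad-GFP, Tpm3 at 57.2 and 62.7 FPKM, and Tpm4 at 89.6 and 251 FPKM. Tpm2 was the lowest of these 4 tropomyosin transcripts in both libraries. Myl6b, an essential myosin light chain of muscle, was at 0.0874 FPKM with Ad-KLF14 and 1.72 FPKM with Ad-GFP, while its neighbour Myl6, the light chain of nonmuscle myosin, was at 287 and 337 FPKM. Krt19, a keratin of bile ducts, was at 0.196 FPKM with Ad-KLF14 and 1.74 FPKM with Ad-GFP, from at least 3 and 27 reads. The hepatocyte keratins Krt8 and Krt18 were at 471 and 738 FPKM with Ad-KLF14 and at 691 and 1095 FPKM with Ad-GFP. Krt20 lay just outside the limits, at 0.186 FPKM with Ad-KLF14 and 1.10 FPKM with Ad-GFP. Micall2, which links the GTPase Rab13 to tight junctions, was 11.50-fold lower (0.241 FPKM with Ad-KLF14, 2.77 FPKM with Ad-GFP), and Rab13 itself was at 3.52 FPKM with Ad-KLF14 and 10.3 FPKM with Ad-GFP. Fignl2 was at 0.324 FPKM with Ad-KLF14 and 2.60 FPKM with Ad-GFP, and the actin nucleator gene Spire2 at 0.423 and 1.74 FPKM. Ankrd24 (4.47-fold lower) completed the class.

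Of the matrix and junction genes, Lamb3 and Mmp3 are described. Lamb3, a chain of the laminin of epithelial basement membranes, was at 0.398 FPKM with Ad-KLF14 and 3.51 FPKM with Ad-GFP, from at least 18 and 161 reads (8.82-fold lower, interval 5.405 to 15.3). Its partner chain gene Lama3 was at 0.199 FPKM with Ad-KLF14 and 0.607 FPKM with Ad-GFP. Mmp3, the matrix protease stromelysin, was at 0.149 FPKM with Ad-KLF14 and 2.41 FPKM with Ad-GFP (16.1-fold lower, interval 5.20 to 80.8).

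Secreted signals and their receptors included the gene with the lowest value above 0. Cxcr7, now named Ackr3, encodes the receptor that removes the chemokine CXCL12 from the surroundings. Cxcr7 was at 0.0348 FPKM from at least 1 read with Ad-KLF14 and at 2.02 FPKM from at least 59 reads with Ad-GFP, 58.2-fold lower (interval 10.04 to 2336). The ligand gene Cxcl12 was at 0.664 FPKM with Ad-KLF14 and 2.70 FPKM with Ad-GFP, and the signalling receptor gene Cxcr4 went the other way, at 2.72 FPKM with Ad-KLF14 and 1.07 FPKM with Ad-GFP. Wls, which carries Wnt proteins to the cell surface, was at 0.415 FPKM with Ad-KLF14 and 3.48 FPKM with Ad-GFP (8.38-fold lower, interval 4.59 to 16.8). The growth factor midkine, Mdk, was at 0.257 FPKM with Ad-KLF14 and 2.11 FPKM with Ad-GFP. Guanylin, Guca2a, a peptide of the gut that acts on a guanylate cyclase receptor, was at 0.160 FPKM with Ad-KLF14 and 1.89 FPKM with Ad-GFP, from at least 1 and 12 reads. The receptor gene Gucy2c stood at 0.0456 FPKM with Ad-KLF14 and 0.0449 FPKM with Ad-GFP. Edn1, the vasoconstrictor endothelin, was 4.03-fold lower (0.421 FPKM with Ad-KLF14, 1.70 FPKM with Ad-GFP).

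Among the 11 genes known from the nervous system, those of membranes and adhesion had the highest control levels. Igsf9, an immunoglobulin superfamily protein of dendrites, was at 0.427 FPKM with Ad-KLF14 and 5.72 FPKM with Ad-GFP, from at least 20 and 272 reads (13.4-fold lower, interval 8.51 to 22.3). Nkain1, whose product binds the sodium pump, was at 0.246 FPKM with Ad-KLF14 and 5.44 FPKM with Ad-GFP (22.1-fold lower, interval 10.5 to 55.9). The protocadherin gene Pcdh9 was at 0.357 FPKM with Ad-KLF14 and 4.69 FPKM with Ad-GFP, from at least 22 and 293 reads. Igsf9 and Pcdh9 had the most reads with Ad-GFP in the whole set. Cortexin, Ctxn1, was at 0.293 FPKM with Ad-KLF14 and 3.89 FPKM with Ad-GFP, from at least 2 and 27 reads. Genes of synaptic vesicle release and synapse adhesion were Rims3 (0.367 FPKM with Ad-KLF14, 2.26 FPKM with Ad-GFP), Unc13b (6.59-fold lower), Syt14 (6.08-fold) and Nlgn2 (5.60-fold). The relatives Rims2 and Unc13a were higher with Ad-KLF14, at 3.74 and 0.867 FPKM against 1.97 and 0.122 FPKM with Ad-GFP, and Rims1 was at 0.614 FPKM with Ad-KLF14 and 0 with Ad-GFP. Unc13d was lower, at 0.136 FPKM with Ad-KLF14 and 0.312 FPKM with Ad-GFP. Zfp365 (4.08-fold lower), Olfm2 (3.20-fold) and Tubb2b (3.35-fold) lay near the limits. Tubb2b is nearly identical in its coding part to Tubb2a, which was at 51.2 FPKM with Ad-KLF14 and 55.4 FPKM with Ad-GFP, so how reads were shared between them makes its value uncertain. Markers of neurons were at or near 0. Of 12 such markers 10 were in the files, their summed level was 0.606 FPKM with Ad-KLF14 and 0.930 FPKM with Ad-GFP, and Snap25, Stmn2 and Gad1 were at 0 in both.

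The immune class held the gene with the widest ratio. Cyp4f18, the neutrophil enzyme that inactivates leukotriene B4, was at 0.0527 FPKM from at least 1 read with Ad-KLF14 and at 4.93 FPKM from at least 95 reads with Ad-GFP, 93.7-fold lower (interval 16.4 to 3738). The other 5 Cyp4f genes compared did not share that ratio. Cyp4f13 was at 18.2 FPKM with Ad-KLF14 and 22.9 FPKM with Ad-GFP, Cyp4f14 at 3.63 and 4.78 FPKM, Cyp4f15 at 0.210 and 0.746 FPKM and Cyp4f16 at 15.9 and 22.8 FPKM, while Cyp4f17 went the other way, at 14.5 FPKM with Ad-KLF14 and 7.68 FPKM with Ad-GFP. Cathepsin W, Ctsw, a protease of cytotoxic lymphocytes, was at 0.437 FPKM with Ad-KLF14 and 4.23 FPKM with Ad-GFP (9.69-fold lower, interval 4.20 to 27.5). It overlaps the neighbouring gene Fibp, which was at 19.7 FPKM with Ad-KLF14 and 23.5 FPKM with Ad-GFP. Rasgrp2, which activates Rap1 in platelets, was at 0.409 FPKM with Ad-KLF14 and 2.26 FPKM with Ad-GFP. Gm5431, which RefSeq gives the synonym Irgb9b8 of the immunity-related GTPases, was at 0.423 FPKM with Ad-KLF14 and 2.89 FPKM with Ad-GFP. That family has near-identical copies, which makes the value of Gm5431 uncertain. The scavenger receptor family gene Srcrb4d was 6.90-fold lower and Bst1, the ectoenzyme CD157, 5.92-fold. Lst1, a leukocyte transcript, was at 0.431 FPKM with Ad-KLF14 and 1.70 FPKM with Ad-GFP from at least 1 and 4 reads. Its interval, built on these lower limits, takes in 1 and may be too wide.

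Markers of lymphocytes and neutrophils were low in both libraries. The 5 B and plasma cell markers in the files, 0 of them at 0 FPKM, summed to 2.21 FPKM with Ad-KLF14 and 0.883 FPKM with Ad-GFP. Of 10 T and NK cell markers, 8 were at 0 with Ad-KLF14 and 9 with Ad-GFP, and their sums were 0.237 FPKM with Ad-KLF14 and 0.0857 FPKM with Ad-GFP. Cd3e, Cd8a, Nkg7, Gzma and Ncr1 were at 0 in both. The 9 neutrophil markers summed to 1.82 FPKM with Ad-KLF14 and 1.57 FPKM with Ad-GFP, with S100a9, Mpo and Ly6g at 0 in both. Macrophage markers, by contrast, were present at 229 FPKM with Ad-KLF14 and 156 FPKM with Ad-GFP over 12 genes, none at 0. Cd68 carried that sum. Without it, a split chosen after seeing the data, the other 11 summed to 68.97 FPKM with Ad-KLF14 and 85.2 FPKM with Ad-GFP. That lower sum rests on Mpeg1, at 17.1 FPKM with Ad-KLF14 and 40.1 FPKM with Ad-GFP. Emr1, Clec4f, Marco, Cd5l, Lyz2, C1qb and C1qc were higher with Ad-KLF14, and Csf1r, Vsig4 and C1qa were lower. The macrophage sums therefore show no common direction. The 10 endothelial markers summed to 11.8 FPKM with Ad-KLF14 and 13.5 FPKM with Ad-GFP, and the 12 stellate and fibroblast markers to 9.03 and 6.63 FPKM. Among lists of other cell types, the bile duct list holds the only member of the set, Krt19. Its 9 genes summed to 248 FPKM with Ad-KLF14 and 806 FPKM with Ad-GFP, mostly from Spp1, which cultured hepatocytes can also express. Krt7 and Cftr, which define bile duct cells, were at 0 in both, and Epcam was at 0.392 FPKM with Ad-KLF14 and 0.257 FPKM with Ad-GFP. Of 10 striated muscle markers, 7 were at 0 with Ad-KLF14 and 7 with Ad-GFP, with sums of 6.94 FPKM with Ad-KLF14 and 13.7 FPKM with Ad-GFP, mostly from Tnnt2. The 12 markers of stratified epithelium summed to 10.9 FPKM with Ad-KLF14 and 17.4 FPKM with Ad-GFP, and 6 of them were at 0 with Ad-KLF14 and 5 with Ad-GFP. In bulk RNA, fewer cells of a type and less RNA per cell cannot be told apart, and the part of rare cells in these differences was not tested.

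Of the enzymes of metabolism, several act on sugars, inositol and lipids. Impa2, which releases inositol from inositol phosphate, was at 0.388 FPKM with Ad-KLF14 and 5.23 FPKM with Ad-GFP, from at least 3 and 41 reads (13.5-fold lower, interval 4.30 to 68.0). The related Impa1 was at 28.9 FPKM with Ad-KLF14 and 33.3 FPKM with Ad-GFP, while Isyna1, the synthase for inositol phosphate, was at 3.02 FPKM with Ad-KLF14 and 34.1 FPKM with Ad-GFP, 11.3-fold lower. Fbp2, the muscle form of fructose bisphosphatase, was at 0.139 FPKM with Ad-KLF14 and 2.25 FPKM with Ad-GFP (16.3-fold lower, interval 4.16 to 139.9). Mogat2, which makes diacylglycerol from monoacylglycerol during fat absorption in the gut, was at 0.152 FPKM with Ad-KLF14 and 2.59 FPKM with Ad-GFP (17.1-fold lower, interval 5.53 to 85.5). Its neighbour in the genome, Dgat2, which makes triglyceride in liver, was at 230 FPKM with Ad-KLF14 and 212 FPKM with Ad-GFP. Txnrd3, the thioredoxin glutathione reductase of testis, was at 0.348 FPKM with Ad-KLF14 and 3.71 FPKM with Ad-GFP, from at least 11 and 119 reads, while Txnrd1 was at 283 and 208 FPKM. The O-mannosyltransferase gene Tmtc4 was 9.05-fold lower (0.291 FPKM with Ad-KLF14, 2.63 FPKM with Ad-GFP) and Gtdc1, a glycosyltransferase-like gene, 7.30-fold (0.351 and 2.56 FPKM). Fhit, a diadenosine triphosphate hydrolase, was 4.34-fold lower, the palmitoyltransferase gene Zdhhc23 4.44-fold, the dipeptidase gene Pm20d2 4.05-fold, and the sugar chain enzymes Gcnt1 and Chst12 3.94-fold and 4.79-fold.

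In the transport class, Prelid2 had the highest control level of all 67 genes. Prelid2, of the PRELI family that moves phospholipids inside mitochondria, was at 0.372 FPKM from at least 3 reads with Ad-KLF14 and at 14.5 FPKM from at least 119 reads with Ad-GFP, 39.1-fold lower (interval 13.1 to 192.3). The family member Prelid1 was at 197 FPKM with Ad-KLF14 and 297 FPKM with Ad-GFP. Sfxn3, a mitochondrial sideroflexin, was at 0.333 FPKM with Ad-KLF14 and 1.94 FPKM with Ad-GFP. The major facilitator gene Mfsd9 was at 0.284 FPKM with Ad-KLF14 and 1.77 FPKM with Ad-GFP. Xkr8, which exposes phosphatidylserine on dying cells, was at 0.190 FPKM with Ad-KLF14 and 1.63 FPKM with Ad-GFP, and Tmc4 at 0.497 and 1.62 FPKM.

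Signalling genes were Mapk11, Rap1gap and Tnk1. Mapk11, p38 beta, was at 0.257 FPKM with Ad-KLF14 and 2.79 FPKM with Ad-GFP (10.8-fold lower, interval 5.02 to 27.9). The main p38 gene, Mapk14, was at 74.4 FPKM with Ad-KLF14 and 36.0 FPKM with Ad-GFP. Rap1gap, which switches off Rap1, was at 0.474 FPKM with Ad-KLF14 and 2.03 FPKM with Ad-GFP. The tyrosine kinase gene Tnk1 was at 0.251 FPKM with Ad-KLF14 and 1.51 FPKM with Ad-GFP, from at least 9 reads with Ad-KLF14 and 55 with Ad-GFP.

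The germline and nuclear class held Tle6, Zfp41, Ranbp17, 2610020H08Rik (Rexo5 in RefSeq), 4930432K21Rik (synonym Brme1), Ell3 and Tert. Tle6, a Groucho family protein of the oocyte, was at 0.490 FPKM with Ad-KLF14 and 3.29 FPKM with Ad-GFP (6.72-fold lower, interval 3.55 to 14.04). Its relatives did not move one way: Tle1, Tle3 and Tle4 were higher with Ad-KLF14, at 17.2, 16.5 and 21.9 FPKM against 9.31, 12.95 and 10.1 FPKM with Ad-GFP, Tle2 was at 0.587 FPKM with Ad-KLF14 and 0.515 FPKM with Ad-GFP, and Aes was lower, at 87.1 FPKM against 208 FPKM. Tert, the catalytic subunit of telomerase, was at 0.262 FPKM with Ad-KLF14 and 1.60 FPKM with Ad-GFP, from at least 5 and 31 reads (6.11-fold lower, interval 2.36 to 20.1). Dkc1, which stabilises the telomerase RNA, was at 25.8 FPKM with Ad-KLF14 and 25.1 FPKM with Ad-GFP. The elongation factor gene Ell3 was 6.51-fold lower (0.268 FPKM with Ad-KLF14, 1.74 FPKM with Ad-GFP), while Ell was at 36.8 FPKM with Ad-KLF14 and 9.71 FPKM with Ad-GFP. With Ad-KLF14, Zfp41, Ranbp17, 2610020H08Rik and 4930432K21Rik were at 0.312, 0.412, 0.402 and 0.396 FPKM, against 2.55, 2.23, 1.98 and 1.77 FPKM with Ad-GFP. Of 11 male germ cell markers, 7 were at 0 with Ad-KLF14 and 9 with Ad-GFP, with sums of 0.292 and 0.644 FPKM.

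Of the 8 genes with few or no annotations, 5730508B09Rik (Fam241a in RefSeq) had the highest control level, at 0.448 FPKM with Ad-KLF14 and 4.25 FPKM with Ad-GFP (9.49-fold lower). BC046404 was at 0.316 FPKM with Ad-KLF14 and 3.56 FPKM with Ad-GFP, and 9930023K05Rik (Plekhs1 in RefSeq) at 0.150 and 2.48 FPKM. Fam158a (Emc9, a part of the membrane protein insertion complex) was at 0.334 FPKM with Ad-KLF14 and 2.31 FPKM with Ad-GFP. E330009J07Rik (Dennd11 in RefSeq) was 6.41-fold lower and Fam84a (Lratd1) 5.59-fold. Gm10155, typed as mRNA in the files but as a pseudogene in RefSeq, was at 0.186 FPKM with Ad-KLF14 and 2.01 FPKM with Ad-GFP from at least 1 and 11 reads.

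Relatives and partners of 42 of the genes, chosen by hand after the values were known, gave 97 further genes. In 33 of the 42, the relative with the highest control level was above the low gene itself. In 27 of the 42, that relative was at 5 FPKM or more in both libraries. Neither count sets the low genes apart, because the highest relative was taken wherever there were several. The whole set was also low in the control, with a median of 2.02 FPKM with Ad-GFP. All mRNA rows at 1.5 FPKM or more there had a median of 15.1 FPKM. Whether other genes would give like counts was not tested. A mean of 1 FPKM or more was reached by 64 relatives. On log2(FPKM + 1), 10 of these were lower with Ad-KLF14 by 2-fold or more and 3 were higher by as much, with a median of −0.22. Among all 11258 mRNA rows at that mean, 9.28% lay that far below and 6.42% that far above.

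Genes next to the 67 in the genome come from the same 2 libraries but were not chosen by their values. By the gene order of RefSeq on GRCm38.p6, 64 of the genes could be placed, and none had another of the 67 as its direct protein-coding neighbour. Of the 72 neighbours that averaged 1 FPKM or more, 16 (22.2%) were lower with Ad-KLF14 by 2-fold or more and 1 (1.39%) was higher by as much, beside 9.28% and 6.42% of all mRNA rows. Their median log2 ratio was −0.16. Without neighbours that overlap the low gene, the count was 14 of 66 (21.2%). The most distant was G0s2, the inhibitor of adipose triglyceride lipase, which lies beside Lamb3 and was at 0.691 FPKM with Ad-KLF14 and 15.99 FPKM with Ad-GFP. Fbp1, the liver form of fructose bisphosphatase beside Fbp2, was at 7.13 FPKM with Ad-KLF14 and 20.9 FPKM with Ad-GFP. Igsf9 had a lower gene on both sides, Slamf9 (2.98 FPKM with Ad-KLF14, 7.88 FPKM with Ad-GFP) and the actin-binding Tagln2 (148 and 333 FPKM). Psme1, which overlaps Fam158a, was at 35.4 FPKM with Ad-KLF14 and 136 FPKM with Ad-GFP, and since strand use in counting is not stated, reads of such a pair cannot be told apart. Guca2b beside Guca2a, at 1.19 FPKM with Ad-KLF14 and 3.23 FPKM with Ad-GFP, fell just short of 2-fold on that scale. Many of the 16 lay just past 2-fold, so the count depends on that limit. Some neighbours, such as Fbp1, are also relatives of the low gene. Whether neighbours of other genes would give like shares was not tested.

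**Figure D5:**
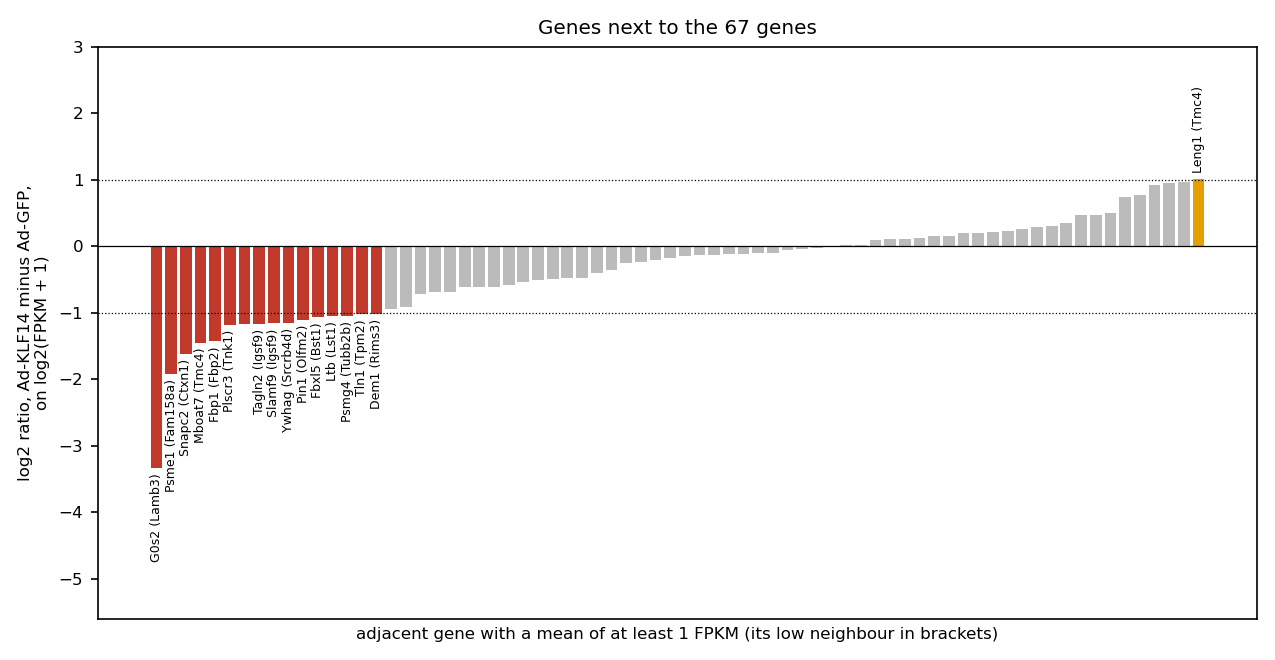
Bars give the difference of Ad-KLF14 from Ad-GFP in log2(FPKM + 1) for the 72 adjacent genes that averaged 1 FPKM or more, in order of size, with dotted lines at 2-fold. The 16 red bars are at least 2-fold lower with Ad-KLF14, from G0s2 beside Lamb3 to Dem1 beside Rims3, 1 of them without a name, and the 1 orange bar, Leng1, is at least 2-fold higher.

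Promoter windows of 250 bases before to 50 bases after the start were taken from RefSeq on GRCm38.p6 for 52 of the 67 genes, 73 windows in all. Shown are the genes with the highest control level among those with 1 window (Tpm2 and Igsf9), the one with the widest ratio (Cyp4f18) and the one with the highest control level whose only window holds a TATA box (Mmp3). Capitals mark the GC box core GGGCGG on either strand in Tpm2 (chr4:43523505-43523804, minus strand), Igsf9 (chr1:172481963-172482262, plus strand) and Cyp4f18 (chr8:72009577-72009876, minus strand). In Mmp3 (chr9:7445572-7445871, plus strand) they mark TATAAA.
Tpm2: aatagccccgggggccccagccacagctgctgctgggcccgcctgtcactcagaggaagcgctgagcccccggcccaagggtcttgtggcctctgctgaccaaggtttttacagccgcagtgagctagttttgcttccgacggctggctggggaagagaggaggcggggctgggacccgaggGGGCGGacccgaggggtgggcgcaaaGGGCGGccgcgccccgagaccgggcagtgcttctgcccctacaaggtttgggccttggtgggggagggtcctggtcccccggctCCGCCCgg
Igsf9: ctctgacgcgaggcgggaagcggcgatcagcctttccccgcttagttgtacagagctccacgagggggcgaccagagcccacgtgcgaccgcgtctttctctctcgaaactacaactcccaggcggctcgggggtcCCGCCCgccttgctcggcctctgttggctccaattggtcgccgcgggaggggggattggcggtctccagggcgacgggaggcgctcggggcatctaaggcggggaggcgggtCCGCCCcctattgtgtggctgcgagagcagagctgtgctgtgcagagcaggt
Cyp4f18: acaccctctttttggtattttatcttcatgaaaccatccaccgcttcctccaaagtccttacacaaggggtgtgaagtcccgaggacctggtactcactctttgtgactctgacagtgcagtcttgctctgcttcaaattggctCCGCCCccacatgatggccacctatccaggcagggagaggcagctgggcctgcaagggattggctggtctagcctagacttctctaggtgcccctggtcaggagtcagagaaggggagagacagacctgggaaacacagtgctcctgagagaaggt
Mmp3: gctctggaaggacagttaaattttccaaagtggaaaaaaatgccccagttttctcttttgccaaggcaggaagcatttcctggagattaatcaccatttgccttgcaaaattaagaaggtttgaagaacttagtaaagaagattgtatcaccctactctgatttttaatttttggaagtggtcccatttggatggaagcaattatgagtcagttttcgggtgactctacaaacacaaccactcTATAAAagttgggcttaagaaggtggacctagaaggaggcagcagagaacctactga

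These 4 windows differ in base composition. Igsf9 has 67.7% G and C and a ratio of observed to expected CpG of 0.881, with 2 GC boxes, whereas Mmp3 has 40.0% and 0.0845, with none. Tpm2 lies between them in CpG (0.546) with 3 GC boxes, and Cyp4f18 has a ratio of 0.137 with 1. Over all 73 windows, the GC box core was found in 64.4%, against 63.9% of 10735 windows of the mRNA rows at 1.5 FPKM or more with Ad-GFP. The CACCC sequence CACACCC was found in 9.59% of the windows of the set and 8.13% of all such windows, and TATAAA in 8.22% and 7.17%. The E-box CACGTG was found in 13.7% of the windows of the set and 10.4% of all such windows, each motif being searched on both strands. No motif contains another, though sites of different motifs may share bases. A CpG ratio of at least 0.6 was found in 49.3% of the windows of the set and 71.7% of all such windows. That gap narrowed when only genes under 3 FPKM with Ad-GFP were taken, with 50.8% of 59 windows of the set and 55.1% of 993 windows of all genes at that level. The GC box core stood at 66.1% and 56.4% of those windows. The 59 windows come from 41 genes and the 993 windows from 786 genes. Genes with several starts, such as Rap1gap, count more than once in all these shares, and no share per gene is given.

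In length, the longest GENCODE transcript had a median of 2778 bases over 65 of the 67 genes and 3299 bases over 10466 of the genes at 1.5 FPKM or more with Ad-GFP. Gene families were represented in small numbers, and with 0.639% of all mRNA rows at 1.5 FPKM or more with Ad-GFP meeting the limits, counts this small say nothing about a family. Of 176 solute carrier genes at 1.5 FPKM or more with Ad-GFP none was in the set, of 271 zinc finger genes Zfp41 and Zfp365 were, and of 38 cytochrome P450 genes Cyp4f18 was. Of 5 keratin genes Krt19 was. Of 30 interferon response genes in the files, 28 were at 1.5 FPKM or more with Ad-GFP, and of 34 cytokine and chemokine genes 25 were. None of these was in the set. The interferon list does not hold Gm5431, the immunity-related GTPase gene of the set. Of the 30 interferon genes 29 averaged 1 FPKM or more, of which 11 were lower with Ad-KLF14 by 2-fold or more and 0 higher by as much. For the cytokine and chemokine genes the numbers were 25, 8 and 0. The shares over all mRNA rows at that mean were 9.28% lower and 6.42% higher.

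At the limits, genes just inside and just outside had like values. Just inside 0.5 FPKM with Ad-KLF14 were Tmc4 (0.497 FPKM), Tle6 (0.490), Rap1gap (0.474), Olfm2 (0.470) and Tubb2b (0.467), and just outside were Car8 (0.501 FPKM), Lhpp (0.502), Klc2 (0.505), Trim6 (0.515) and Nuak1 (0.517). With Ad-GFP the genes inside were at 1.62, 3.29, 2.03, 1.51 and 1.56 FPKM in that order, and those outside at 4.94, 2.26, 9.26, 1.59 and 2.23 FPKM. Just inside 1.5 FPKM with Ad-GFP were Olfm2 (1.51 FPKM), Tnk1 (1.51), LOC100503571 (1.55), Tubb2b (1.56) and Bst1 (1.59), and just outside were Tmem102 (1.48 FPKM), Lipn (1.47), Fam26f (1.47), Srl (1.46) and Gpr176 (1.45). With Ad-KLF14 the genes inside were at 0.470, 0.251, 0, 0.467 and 0.269 FPKM in that order, and those outside at 0.254, 0.418, 0.414, 0.180 and 0.115 FPKM.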

How the data were processed

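Frozen primary hepatocytes gave total RNA by Trizol, which went into TruSeq libraries, per the labels' protocols. Mapping tool and build are named as Bowtie 0.12.2 and mm8, per the submitters' processing notes. Gene models, counting rule and strand use are not given in the sources used here. The authors deposited 1 table of FPKM values per library, with 1 value per gene symbol.

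Ratios between the libraries were whole-number ratios times 1 constant for all 16944 genes above 0 in both (relative tolerance 1e-11), which gave the read totals up to a whole factor. The factor 9 was taken because 93.3% of the implied gene lengths were divisible by it and 51.1% by its double. Reads per gene are the smallest whole numbers that give a whole length, so they are lower limits and intervals may be too wide. The recovery was tested on simulated data whose read totals were built with the factor 9. That test therefore cannot show that 9 holds for these libraries. Intervals are 95% Clopper-Pearson, counting error only.

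Log2 ratios use a pseudocount of 1 FPKM; folds are plain FPKM ratios. Of the 67 symbols, 57 matched RefSeq directly and 8 by a synonym. One member and some related genes are not reported here by name; every other member is named, with both values for the highest in Ad-GFP in all (15) and per class (up to 5), for the one at 0, and for genes nearest the limits. Members, classes, relatives and lists were chosen with earlier results of these data known. Alternatives were other pseudocounts, scalings, limits and all gene types. Python 3.11.15, pandas 2.3.3 and scipy 1.17.1 were used.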

Additional observations from a re-analysis of the deposited data

How the results depend on the processing

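Rescaling Ad-KLF14 to the Ad-GFP sum without Klf14, to the upper quartile or by a trimmed mean of log ratios left 63, 65 and 65 of the 67 genes and moved no count by over 1.5 times. The limits decided the counts. With 0.25 FPKM as the low limit, 16 genes were low with Ad-KLF14 (0.150% of those at 1.5 FPKM or more with Ad-GFP) and 40 low with Ad-GFP. With 3 FPKM as the high limit the numbers were 15 (0.156%, 0 of them at 0) and 37, and with 1 FPKM they were 140 (1.27%, 4 of them at 0) and 190. With every gene type, 90 genes met the limits and 12 of them were at 0 with Ad-KLF14. The median log2 ratio of −1.25 was −2.51 with a pseudocount of 0.1 FPKM, −0.42 with 5 FPKM and −1.92 with the high limit of 3 FPKM. Of 345 recomputed log2 ratios of the 67 genes, Klf14 and Alb, 134 left the counting interval. For the 67 genes and Klf14 this happened only with another pseudocount, and for Alb only with rescaling. The limits themselves fix the sign for the 67. Depth limits the genes with few reads, and no replicate bears on any value. No paired analysis was possible because each group has 1 library.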

Other observations

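Outside the mRNA rows, 23 rows met the same limits. They comprised 9 of the type miscRNA, 6 small nucleolar RNAs, 4 precursor miRNA rows, 2 ncRNA and 2 tRNA rows. The 6 small nucleolar RNA genes were listed at 0 with Ad-KLF14, and Snord65, which had the highest value with Ad-GFP, was at 6.98 FPKM from at least 3 reads. None of the 6 had more than 5 recovered reads with Ad-GFP, and Snord53, Snord87 and Snord70 had 1 each. Their values at 0 therefore say little. LOC100503531, a miscRNA row, was below 0.5 FPKM with Ad-KLF14 and at 6.96 FPKM with Ad-GFP, from at least 5 and 141 reads. It was the only one of the 23 with more than 100 recovered reads in either library.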
